A study of Brachypodium distachyon with 7 samples.

Results

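H3K27me3 at the end of 30 days of cold was compared with H3K27me3 in seedlings that had no cold, in the grass Brachypodium distachyon, diploid line ABR1. The comparison covers every gene present in both tables, 6554 genes of the 16434 that have a value for any mark in the series, joined on the locus identifier. Genes were taken whatever their values. Each of the 2 conditions has 1 library of chromatin immunoprecipitation followed by sequencing (ChIP-seq), so no test can be made and each difference below describes this pair of libraries. The series as a whole holds 7 libraries of 2 marks, H3K4me3 and H3K27me3, in 3 conditions. Seedlings without cold (V0) were taken 17 days after sowing. Seedlings at the end of cold (V30) grew for 14 days at 24 °C and then spent 30 days at 4 °C. A further condition (V30N) had 7 days of growth, 30 days at 4 °C and 7 days back in warmth, and its values stand beside the others where they help. The day length was 16 h of light and 8 h of darkness throughout, and aerial parts of several seedlings were pooled for each library. The labels treat V0 and V30 as being at an equal stage of development. V30 plants, with 14 days of growth and 30 days of cold, were however older than V0 plants at 17 days. Age and cold cannot be told apart.

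H3K27me3 is the methyl mark that Polycomb repressive complex PRC2 places on histone H3, and it is found over genes that are held silent. In plants it often spans whole genes and can cover stretches of neighbouring genes. In vernalization, the promotion of flowering by long cold, the mark is known from cereals to be lost at VRN1, a MADS-box promoter of flowering, and from Arabidopsis to be gained at the flowering repressor FLC. In tissue made of many cell types, fewer cells with the mark and less mark per cell cannot be told apart. The tables name genes by locus identifier alone, so the tissue was not checked against marker genes. Names given below to vernalization and cold genes come from published assignments of these identifiers, not from the tables.

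The deposited value is a signal per gene. Its scaling is not given in the sources used here. Its depth is unknown. The medians of V0, V30 and V30N were 117, 114 and 116. The spread around the median was wider in V30. The upper quartile was 4.66 times the lower in V30, against 4.18 in V0 and 4.32 in V30N, and the highest value was 4504 in V30, 3465 in V0 and 3157 in V30N. At the low end, 194 genes in V30 (2.96%) lay below 27.3, the lowest value of the V0 library, and none did in V30N. Across the 6554 genes, which are not replicates, Pearson's r of log2 values was 0.978 between V0 and V30, 0.985 between V0 and V30N and 0.979 between V30 and V30N. The libraries also differed in how finely values were graded. Values below 45 lay on a grid with a step of 0.0192 in V30, 0.0124 in V0 and 0.0140 in V30N, with 87.3% to 90.1% of them within 0.2 of a step of a grid point, where an even spread gives 40%. This property of the V30 library moves with the cold treatment, and both cannot be told apart.

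Most genes differed little between V30 and V0. Differences are given as log2(signal + 27.3), where 27.3 is the first percentile of H3K27me3 values, with each library centred on its median, and they understate the change of low genes. On this scale 72.5% of genes lay within 1.2-fold, and the SD over genes was 0.25, against 0.18 for V30N minus V0. By at least 1.5-fold, 97 genes were lower in V30 (1.48% of all genes) and 64 were higher (0.977%). By at least 2-fold, 17 genes were lower (0.259%) and 4 were higher (0.061%). In V30N against the same V0 library, 9 genes were lower and 7 higher by 1.5-fold, and none passed 2-fold in either direction. Genes past 1.5-fold are called lower and higher genes from here on. The median lower gene had 0.473 times its V0 signal and the median higher gene 1.62 times. The last gene inside the limit had 179 in V0 and 107 in V30 on the lower side, and 725 and 1074 on the higher side, with log2 differences of -0.59 and 0.59, and the genes just outside it had differences of -0.58 and 0.58.

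**Figure D1:**
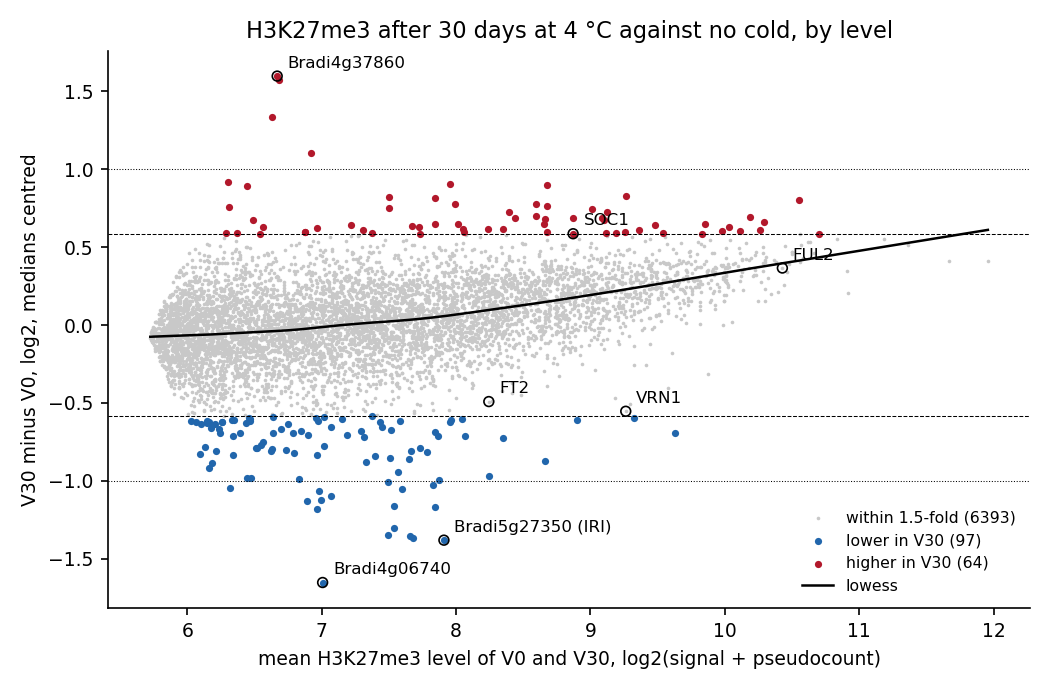
Each point is 1 of 6554 genes. The horizontal axis is the mean H3K27me3 level of V0 and V30 and the vertical axis the V30 minus V0 difference, both in log2 units. Dashed lines mark 1.5-fold and dotted lines 2-fold, and the lowess curve runs from below 0 at low levels to above 0 at high levels. The 97 lower genes (blue) spread over low and middle levels, and the 64 higher genes (red) reach the highest levels.

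The sign of the difference depended on the level of the mark. Among the 25% of genes with the lowest mean level, the median difference was -0.07 and 62.6% of genes had a value below 0. Among the 25% with the highest level, the median was 0.19 and 19.0% were below 0, against 45.7% over all genes. By deciles of level the median moved from -0.06 in the lowest decile, where the median V0 signal was 34.1, through 0.02 in the sixth, to 0.27 in the highest, where the median signal was 599 in V0 and 695 in V30. In that highest decile 92.7% of genes lay above 0, and the lower quartile was 0.16. Strongly marked genes thus stood further above the median gene in V30 than in V0, and weakly marked genes further below it. Spearman's rho across genes was 0.398 with the mean of V0 and V30 as the level, and 0.369 with the V30N library, which enters neither side of the difference, as the level. In V30N minus V0 the medians of the same deciles lay between -0.03 and 0.04.

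**Figure D2:**
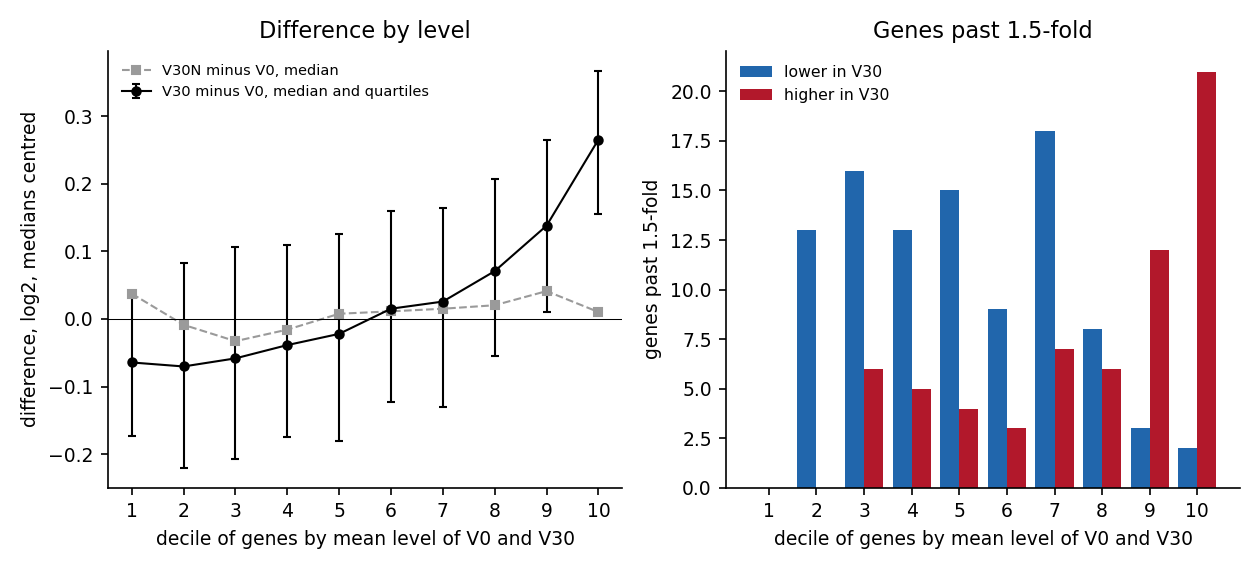
Left, the difference by decile of genes ranked by mean level, with the median and quartiles of V30 minus V0 (black) and the median of V30N minus V0 (grey), in log2 units. Right, the number of genes in each decile that were lower or higher in V30 by 1.5-fold. The V30 medians climb from -0.06 to 0.27, while higher genes are most frequent in the highest decile, with 21 of 64.

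Lower genes mostly started from a middle level. Of the 97, 69 had a V0 signal between the quartiles of that library (57.7 and 242), 26 were above the upper quartile and 2 below the lower one. Counted by mean level in bands of 25% of genes, 22 were in the lowest band, 35 and 33 in the middle bands and 7 in the highest. The median lower gene had 142 in V0, 62.4 in V30 and 115 in V30N. The pseudocount leaves little room for lower genes at the bottom of the range: none was in the lowest decile of level. The lowest V0 signal of any lower gene was 54.5, close to the lower quartile of 57.7. The small count below that quartile is thus set largely by the scale. In 6 of the 97, the V30 value was under the minimum of the V0 library.

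Higher genes started from all levels of the mark, most often from high ones. Of the 64, 31 had a V0 signal above the upper quartile, with a median of 441 in V0, 682 in V30 and 472 in V30N. Another 21 started between the quartiles and 12 below the lower one. These 12 had a median of 37.2 in V0, 87.1 in V30 and 46.8 in V30N. All 4 genes higher by 2-fold were among these 12, with 32.0 to 56.5 in V0 and 128 to 148 in V30. Their V30N signal was 34.2 to 46.9, so they were high in the V30 library alone. With the trend with level removed by lowess, 33 genes in all were higher by 1.5-fold in place of 64, whereas 91 were lower in place of 97.

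The largest difference downward was at Bradi4g06740 on chromosome 4. Its V0 signal was 204, its V30 signal 44.4 and its V30N signal 165, with V30 minus V0 at -1.65. The adjoining Bradi4g06730 had 255, 95.8 and 191 in the same order, a difference of -1.16. Bradi4g06720, next to it on the other side, was highly marked and alike in the 3 libraries, with 553, 570 and 522. The difference at the pair thus ended beside a gene whose own difference was 0.08. On the far side, Bradi4g06770 and Bradi4g06780 were weakly marked, with differences of -0.15 and -0.32. The largest difference at any other locus was at Bradi5g27350, described with the cold genes.

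Over all 17 genes lower by 2-fold, signal ranged from 88.7 to 366 in V0, from 27.4 to 130 in V30 and from 80.4 to 279 in V30N. They lay on all 5 chromosomes, and 7 of them were in runs of adjacent lower genes. V30N was above V30 at all 17. That comparison uses the V30 values which put these genes in the set, so it is a description only.

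The largest difference upward was shared by Bradi4g37860 and Bradi4g37850, neighbours on chromosome 4. Bradi4g37860 had 32.0 in V0, 148 in V30 and 37.2 in V30N, a V30 minus V0 difference of 1.60. Bradi4g37850 had 33.1, 148 and 34.2, a difference of 1.57. Both genes had exactly the same deposited V30 value, so they count as 1 observation. On either side, Bradi4g37840 had 128 in V0 and 124 in V30, and Bradi4g37870 had 172 and 173. The V30 library thus showed these 2 genes at the level of their neighbours, where V0 and V30N showed them near the bottom of the range. Such sharing was rare: of 2747 pairs of adjacent genes, 18 shared a value in V30 and 6 each in V0 and V30N.

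**Figure D3:**
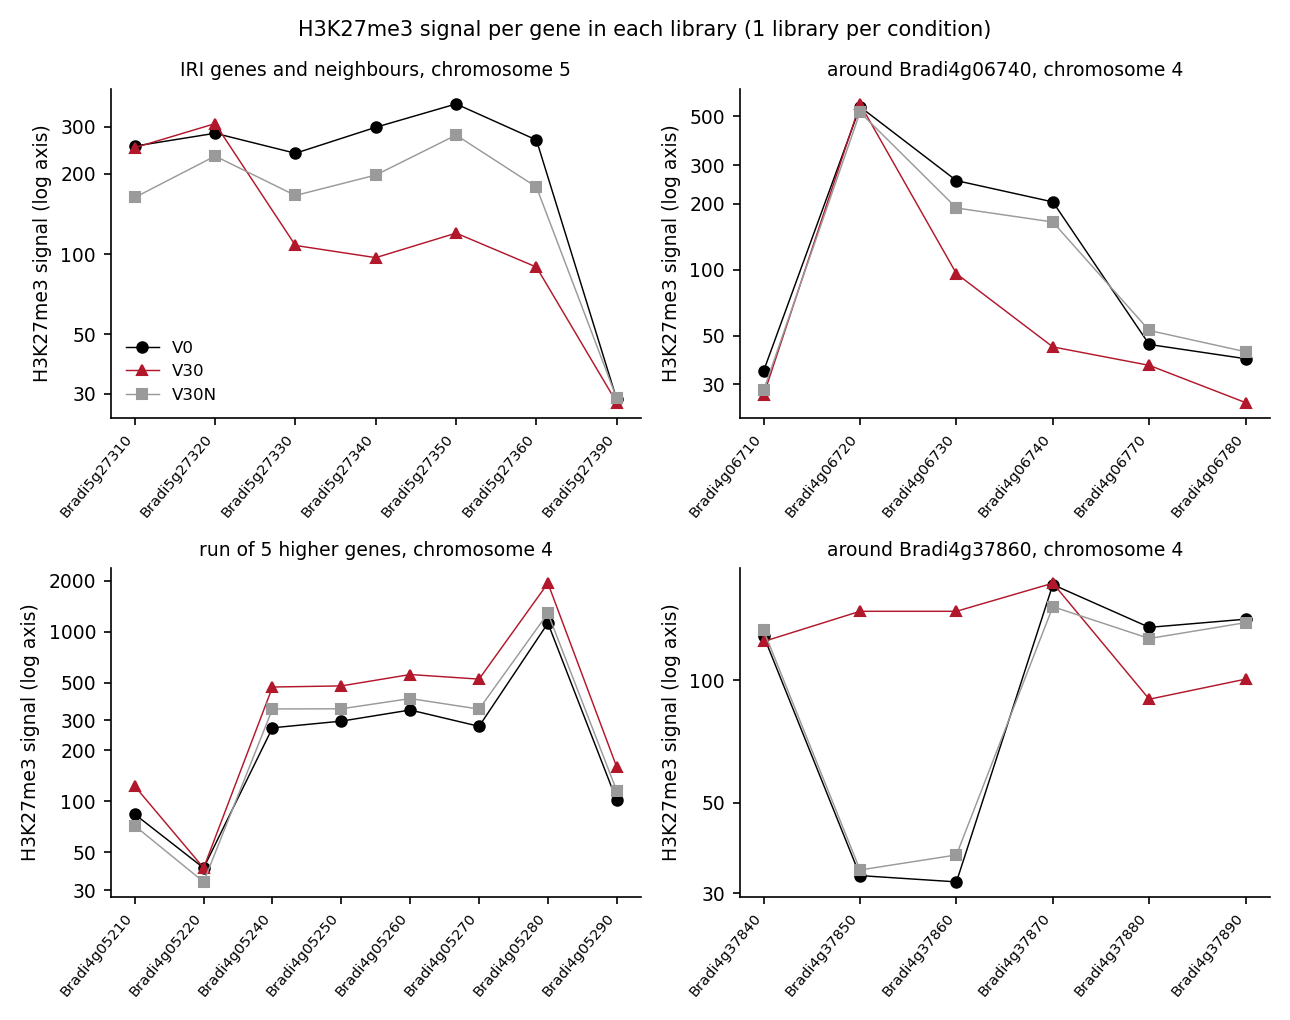
H3K27me3 signal of neighbouring genes on log axes, in V0 (black circles), V30 (red triangles) and V30N (grey squares), with 1 library per condition. In the IRI panel V30 lies below V0 and V30N from Bradi5g27330 to Bradi5g27360. In the panel of 5 higher genes V30 lies above V0 and V30N at each of them, and at Bradi4g37850 and Bradi4g37860 V30 alone is high.

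Lower genes were found along all 5 chromosomes, and more often towards the ends. By chromosome the lower genes were 23 of 1909, 24 of 1444, 19 of 1422, 20 of 1189 and 11 of 590, in the order of chromosomes 1 to 5. Position was read from the locus number, as a share of the highest number on that chromosome. The outer 10% of the numbers at each end held 23.8% of the genes and 41 of the 97 lower genes (42.3%). There 2.63% of genes were lower, against 1.12% elsewhere. The share was smaller inward, from 2.63% in the outermost 10% to 2.00%, 0.975%, 0.576% and 0.865% in the steps that follow, each 10% wide. On chromosome 1 the shares at the ends and elsewhere were 3.09% and 0.618%, and on chromosome 5 they were 4.80% and 1.08%. The 4.80% was 6 of 125 genes, and 4 of these 6 formed 1 run, Bradi5g27330 to Bradi5g27360. Adjacent lower genes are counted singly in all these shares, so the counts are not of separate places. Chromosome 4 had 2.76% and 1.33%, and chromosome 2 had 2.24% and 1.47%. On chromosome 3 they were close, with 5 of 334 genes and 14 of 1088. Within the 3 lower level bands the shares at the ends and elsewhere were 3.47% and 0.773%, 3.32% and 1.77%, and 3.93% and 1.43%. In the highest band, with 7 lower genes, they were 0.228% and 0.500%.

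Higher genes were gathered on chromosome 4. It held 1189 of the 6554 genes but 36 of the 64 higher ones, or 3.03% of its genes, against 0.339% to 0.633% on the other chromosomes. A pair of stretches on this chromosome, drawn after the values were seen, contained 25 of the 64. Only 11 higher genes lay elsewhere on chromosome 4, so its high share rests mostly on these stretches. The stretches had 8 and 65 of the 6554 genes, and with the trend with level removed they held 9 of 33 higher genes. These 25 higher genes started from 30.9 to 1121 in V0. Of them only Bradi4g09527 was weakly marked, at 30.9, and the next lowest start was 114, at Bradi4g09780. Other weakly marked genes of the second stretch lay on both sides of 0. In the first stretch, the 5 adjacent genes Bradi4g05240 to Bradi4g05280 were all higher, the longest run in either direction on this scale. With the trend with level removed their differences were 0.64, 0.53, 0.51, 0.75 and 0.39, so 3 of the 5 no longer reached 1.5-fold, whereas the run of 4 lower genes on chromosome 5 kept differences of -0.97 to -1.44. Bradi4g05270 had 277 in V0, 525 in V30 and 349 in V30N, a difference of 0.90. Bradi4g05280, the most strongly marked of the run, had 1121, 1929 and 1282, a difference of 0.80. The 3 genes Bradi4g05240, Bradi4g05250 and Bradi4g05260 had differences of 0.78, 0.68 and 0.69. V30N was above V0 at all 5, by 0.21 to 0.36.

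The second stretch, called the domain below, ran from Bradi4g09410 to Bradi4g10690 and held higher genes at many places rather than in a single run. Of its 65 genes with H3K27me3, 56 had a difference above 0 and 20 were higher by 1.5-fold, while none was lower. Over all genes 45.7% lay below 0 and 0.977% were higher. Among the 25% of genes with the highest level, 19.0% lay below 0 and 34 of 1639 were higher. The V0, V30 and V30N medians of signal were 329, 443 and 350.0. The median difference was 0.42, and it was 0.22 with the trend with level removed. In a flank of equal length on the side of lower locus numbers the median difference was 0.02, with 17 of 31 genes above 0. In that on the other side it was 0.22, with 40 of 47 genes above 0 and none higher by 1.5-fold. The share of genes above 0 was thus alike in the domain and in this second flank. Within the domain, Bradi4g09780, Bradi4g09790 and Bradi4g09800 formed a run of 3 higher genes. Bradi4g09790 had 441 in V0, 782 in V30 and 573 in V30N, a difference of 0.83. Bradi4g09780 had 114, 205 and 125, a difference of 0.75, and Bradi4g09800 had 292, 500.3 and 291, a difference of 0.76. V30 was the highest library at all 3, while V30N was near V0 at the outer genes and lay between V0 and V30 at Bradi4g09790. Of 546 bins of 500 locus numbers, 47 had at least 20 genes. Among these 47 bins the 2 highest medians, 0.51 and 0.46, were both in this domain, and the median over them was 0.10. The domain was drawn around the high bins. Their place in it, and in part its higher median than in the flanks, therefore follow from that choice. With the trend with level removed, 17 of the 33 higher genes were on chromosome 4 and 9 in the 2 stretches. In the H3K4me3 tables, 13 genes of the domain had a value, and their median difference between V30 and the V0 libraries was -0.06, with V30 above both V0 libraries at 3 and below both at 3.

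**Figure D4:**
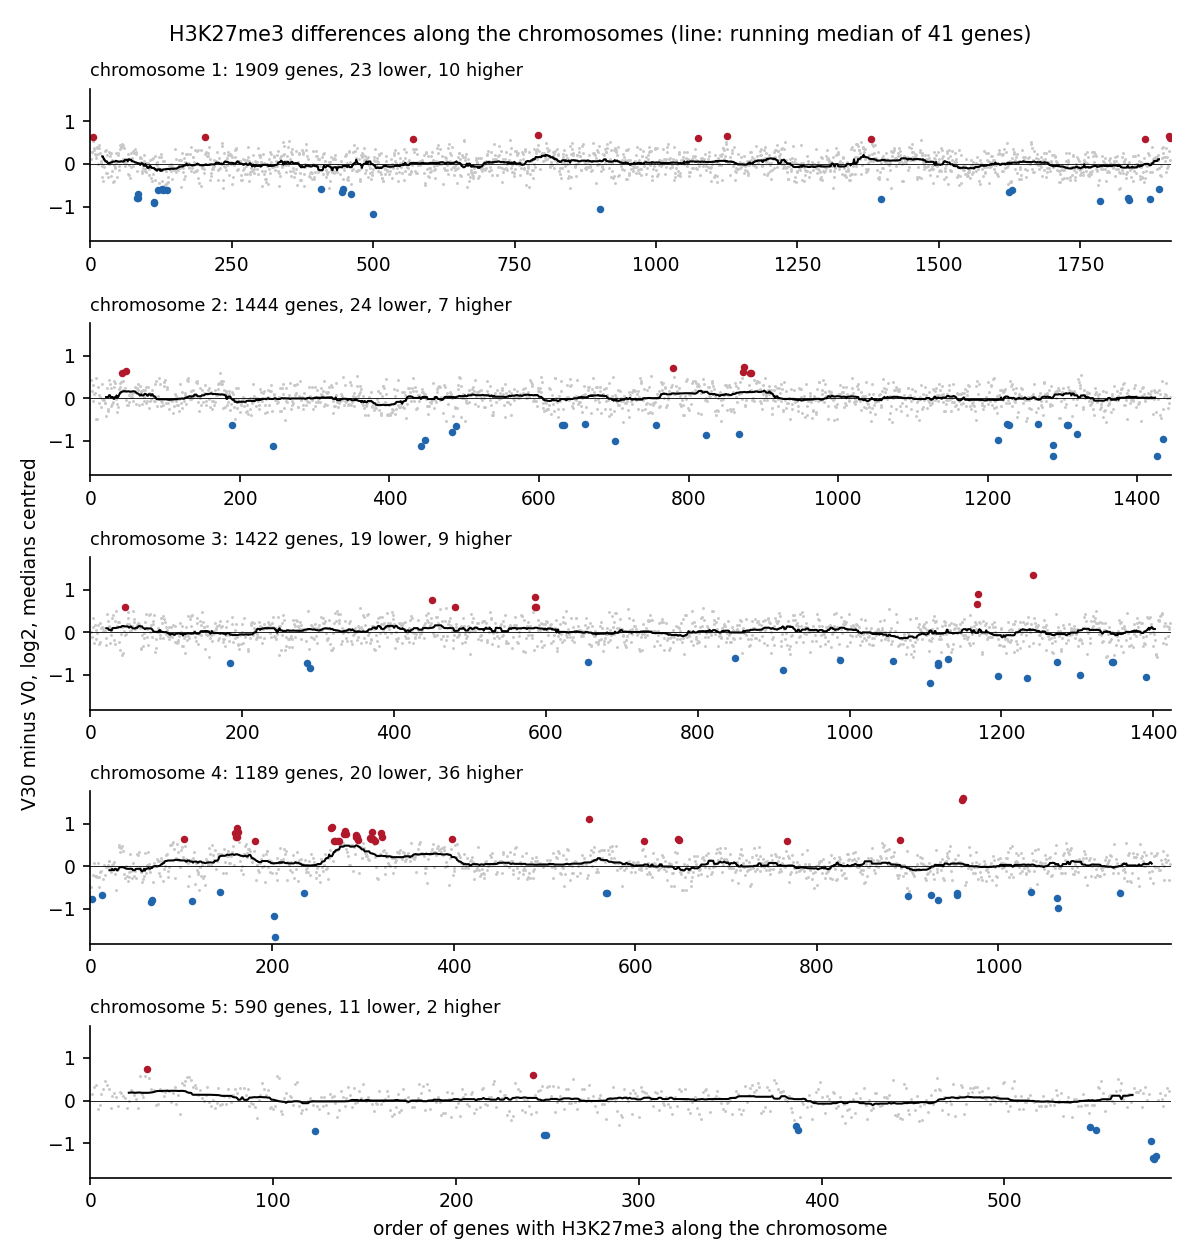
V30 minus V0 difference (log2, libraries centred) of each gene with H3K27me3, in order along the 5 chromosomes, with lower genes in blue, higher genes in red and a running median of 41 genes as a line. Lower genes lie on all chromosomes, and the higher genes crowd into the first part of chromosome 4, where the line stands above 0.

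Neighbouring genes differed alike. Genes whose locus numbers were at most 10 apart had differences correlated at r = 0.534 over 2747 pairs, and r was 0.492 with the trend with level removed. The value was 0.280 for numbers 10 to 20 apart, 0.198 for 20 to 30 and 0.0883 for 50 to 100. The level of the mark itself was correlated in a similar way, with 0.498 for adjacent genes. These r values describe genes, which share regions, and are not a test. Of the 65 lower genes that had an adjacent gene in the table, at least 28 (43.1%) had an adjacent gene that was also lower. Over all 4301 genes with an adjacent gene, the share next to a lower gene was at least 1.93%. Of 47 such higher genes, at least 36 (76.6%) had a higher neighbour, against at least 1.53% over all. These shares are lower bounds, because only 1 adjacent gene on each side was looked at where a gene had several. The lower genes formed 81 separate places, 68 of them single genes, 11 pairs, 1 run of 3 and 1 run of 4. The higher genes formed 44 places, 28 of them single genes, 14 pairs, 1 run of 3 and 1 run of 5. The run of 3 lower genes, near one end of chromosome 1, had 105 in V0 and 47.0 in V30 at Bradi1g02290, 94.6 and 41.6 at Bradi1g02300, and 70.1 and 31.4 at Bradi1g02310. The 3 ratios of V30 to V0, from 0.440 to 0.448, were nearly the same although the starting levels differed.

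The run of 4 lower genes held 3 listed cold genes. The IRI family makes proteins that bind to ice and stop small crystals in frozen tissue from growing together. Of the 5 IRI genes in the table, 3 were lower by 1.5-fold, against 1.48% of all genes, and the median difference was -0.94, against 0.03 over all genes. The 3 are adjacent in 1 run and are not separate observations, and the other 2 had differences of 0.02 and 0.15. The median is the value of Bradi5g27330 alone, and the list was chosen with earlier results of these data known. Bradi5g27350 had the second lowest difference of all genes, with 366 in V0, 120 in V30 and 279 in V30N (-1.38). Bradi5g27340 had the fourth lowest, with 299, 97.0 and 198 (-1.36), and Bradi5g27330 had 239, 108 and 166 (-0.94). The adjoining Bradi5g27360, which was not on the list, had 268, 89.5 and 178, a difference of -1.30 and the sixth lowest. Bradi5g27320, adjacent to Bradi5g27330, had 284 in V0, 308 in V30 and 233 in V30N, and Bradi5g27310 had 254, 251 and 163. V30 was thus near V0 at these genes while V30N was the lowest library. The V0 signal of all 6 genes lay between 239 and 366. On the far side, Bradi5g27390 was at 28.6 and 27.8, near the minimum in both libraries.

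CBF genes encode AP2-type activators of cold-responsive genes, and 4 of the 9 listed loci were in the table. Bradi4g35590 was lower by 1.5-fold, with 268 in V0, 152 in V30 and 314 in V30N (-0.69). Bradi4g35600, with 94.6, 52.9 and 103 (-0.57), and Bradi4g35580, with 135, 83.6 and 140.0 (-0.51), came close to the limit. At these 3 adjacent genes V30 was the lowest library, and V30N was above V0, by 0.06 at Bradi4g35580, 0.23 at Bradi4g35590 and 0.11 at Bradi4g35600. Set against genes in the same decile of level, 2.29% to 4.27% had a lower difference than they did. Bradi4g35640 had 28.0 in V0 and 23.5 in V30, a difference of -0.09 at the bottom of the range.

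Flowering genes differed in both directions, with 4 of the 8 measured loci below 0, 4 above and a median difference of 0.03, the same as over all genes. These loci were strongly marked, with a median V0 signal of 348 against 117 over all genes. With the trend with level removed, their median difference was -0.04. VRN1 (Bradi1g08340) had 726 in V0, 474 in V30 and 460 in V30N. Its difference of -0.55 did not reach 1.5-fold, but in its decile of level, where nearly all genes were above 0, 0.305% of the 656 genes were lower. With the trend removed it was -0.78. The genes before VRN1 on the chromosome went the other way: Bradi1g08326 had 1035 in V0 and 1441 in V30 (0.50) and Bradi1g08320 had 445 and 592 (0.43). With the trend removed these differences were 0.13 and 0.23. Bradi1g08332, which lies between, was weakly marked with 57.0 and 36.0 (-0.38). FT2 (Bradi2g07070), a relative of the florigen gene FT1, had 337 in V0, 225 in V30 and 209 in V30N (-0.49), and 1.37% of the genes in its decile of level were lower.

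SOC1 (Bradi1g77020), a MADS-box gene, was the one flowering gene past 1.5-fold, with 360 in V0, 539 in V30 and 316 in V30N. Its difference of 0.59 lay just inside the limit and was 0.41 with the trend removed. FUL2 (Bradi1g59250), of the same MADS-box clade as VRN1, had 1202, 1518 and 1098. Its difference of 0.37 was usual for its level, since 74.7% of the genes in its decile were lower, and with the trend removed it was -0.03. FT1 (Bradi1g48830), which encodes the florigen itself, had 565 and 628 (0.18), and 30.5% of its decile were lower. VRN2L (Bradi3g10010), similar to VRN2, which represses flowering in cereals, had 178 and 151 (-0.17). ELF3 (Bradi2g14290), a clock gene, had 73.3 and 67.0 (-0.06), and CO1 (Bradi1g43670), related to the daylength gene CONSTANS, had 47.0 and 51.7 (0.12). The remaining 6 listed loci were not in the H3K27me3 tables.

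Lower and higher genes differed in whether they also carried H3K4me3, the mark of active gene starts, which was measured in other libraries. Over all genes with H3K27me3, 1872 of 6554 (28.6%) were in the H3K4me3 tables. Among lower genes the share was 47 of 97 (48.5%), and among higher genes 10 of 64 (15.6%). Weakly H3K27me3-marked genes carry H3K4me3 more often, so the shares were also taken within bands of level. In the lowest band 12 of 22 lower genes (54.5%) had H3K4me3, against 42.5% of all genes there. In the second band it was 17 of 35 (48.6%) against 34.4%, and in the third 17 of 33 (51.5%) against 22.2%. In the highest band 1 of 7 lower genes and 15.2% of all genes had it. Among higher genes in the highest band it was 4 of 34 (11.8%). Over deciles of the difference itself, the share with H3K4me3 went from 46.2% among the genes with the lowest values to 16.0% among those with the highest. Level was not held fixed in these deciles, whose median V0 signal was 93.3 in the first and 237 in the last. The part of level in this trend was not tested.

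**Figure D5:**
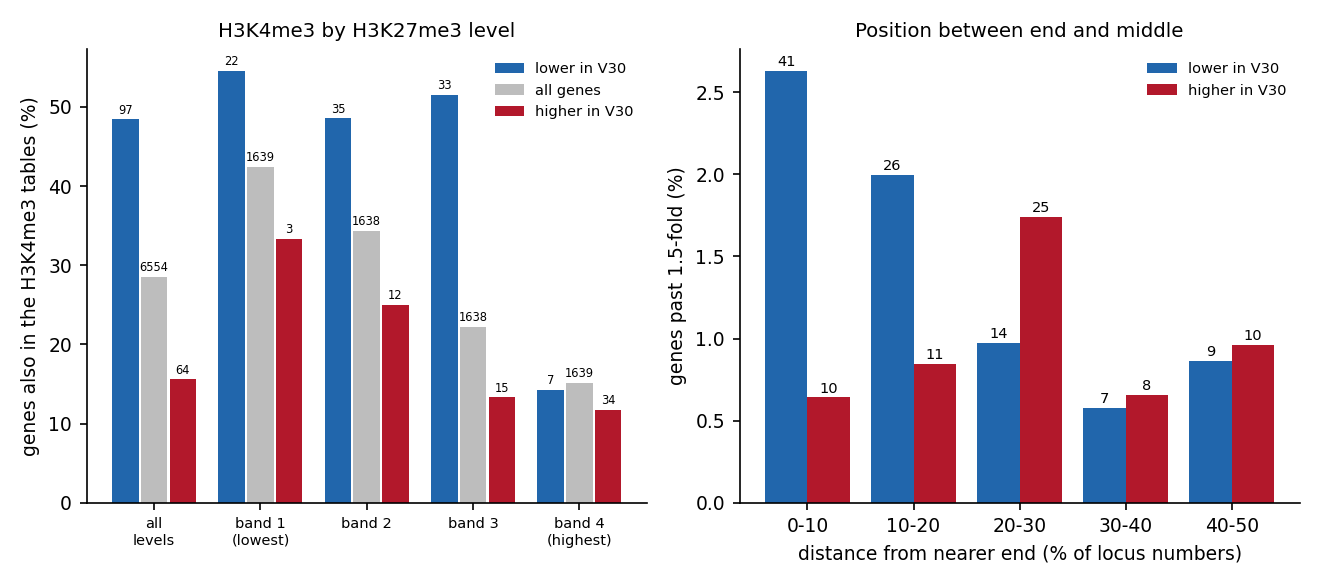
Left, the percentage of genes that are also in the H3K4me3 tables, for lower genes (blue), all genes (grey) and higher genes (red), overall and by 25% band of H3K27me3 level, with the number of genes in each group over its bar. Right, the percentage of genes past 1.5-fold by distance from the nearer chromosome end, with the number of such genes over each bar. Lower genes carry H3K4me3 more often than all genes do, 48.5% against 28.6%, in all but the highest band, and are most frequent in the outermost 10%, at 2.63%.

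The amount of H3K4me3 was compared next. H3K4me3 has 2 V0 libraries, which the series describes as biological replicates, and 1 V30 library. Of the 47 lower genes with H3K4me3, 20 (42.6%) had V30 above both V0 libraries once each library was centred, against 35.9% of all 1872 genes with both marks. Without centring the shares were 34.0% and 20.5%. In 13 V30 was below both, 27.7% against 30.6%, with centring. The median H3K4me3 difference was 0.12 for the lower genes and 0.04 for all. In each H3K4me3 library many genes share exactly 1 value, 1139 genes in the first V0 library, 74 in the second and 1012 in V30. Without genes at such a value, 16 of 38 lower genes (42.1%) had V30 above both, against 37.7% over all. Among lower genes without a tied value, the largest H3K4me3 rise, chosen after its values were seen, was at Bradi1g76030. Its H3K4me3 was 24.98 and 30.8 in V0 and 96.7 in V30, while H3K27me3 there stood at 245 without cold, 125 in V30 and 196 in V30N. The adjacent lower gene Bradi1g76040 had H3K4me3 of 39.3 and 65.2 in V0 and 43.6 in V30. The largest H3K4me3 fall among the same genes was at Bradi4g36601, with 86.7 and 91.4 in V0 and 37.3 in V30. At the CBF gene Bradi4g35590, H3K4me3 was 45.04 and 59.8 in V0 and 73.3 in V30. At VRN1, which is not among the lower genes, it was 22.3 and 23.2 in V0, both values that many genes share, and 66.0 in V30. Of the 10 higher genes with H3K4me3, 2 had V30 below both V0 libraries and 2 above both, against 30.6% and 35.9% of all genes with both marks.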

How the data were processed

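Per the labels' protocols, ChIP was made on pooled aerial parts of seedlings and libraries with a TruSeq ChIP kit. The authors deposited 1 signal value per gene and library. Reads were aligned with Bowtie2 2.1.0, per the submitters' processing notes. Genome build, annotation, region calling, input correction and scaling are not given in the sources used here. No counting interval was computed. None of the loci matched the RefSeq gene table used here. Lists that need gene descriptions, and promoter motifs, were therefore not formed. The H3K4me3 V30N library was not used.

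From the deposited signal, log2(signal + 27.3) was taken, each library was centred on its median, and V30 minus V0 was computed. The trend with level was a lowess fit with a fraction of 0.3. Adjacent genes have locus numbers at most 10 apart. Named genes were the listed loci measured, the 2 largest differences per direction among genes not in the lowest 25% by level, and runs of at least 3. The members and lists were chosen with earlier results of these data known. Neighbours of named genes and the stretches on chromosome 4 were picked after their values were seen. With 1 library per condition no test was run. Alternatives covered centring, quantile normalization, the pseudocount, the trend with level, a filter on low genes, the definition of adjacent genes and the H3K4me3 V0 libraries. Steps were tested on simulated data. Python 3.11.15, numpy 2.4.6, pandas 2.3.3, scipy 1.17.1, statsmodels 0.14.6 and matplotlib 3.10.9 were used.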

Additional observations from a re-analysis of the deposited data

How the results depend on the processing

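No paired analysis was possible because H3K27me3 has 1 library per condition. Counts past a fold depended most on the pseudocount. With it halved, 156 genes were lower by 1.5-fold and 27 by 2-fold. With double, 51 were lower and 33 higher by 1.5-fold, 8 were lower by 2-fold, and the IRI median was -0.82. With none, an alternative chosen after seeing the data, 319 were lower and 165 higher by 1.5-fold and 54 and 8 by 2-fold. The 64 higher genes were 40 without centring, 38 with quantile normalization and 33 with the trend with level removed. Quantile normalization equalizes the 2 distributions and by construction took away the dependence on level: the medians were 0.0010 in the lowest 25% of genes by level and 0.0071 in the highest, with rho 0.0080. The share of higher genes with a higher neighbour, again a lower bound, was then 37.5%, or 42.9% with the trend removed. For genes at most 20 numbers apart the correlation of differences was 0.42. The share of lower genes near chromosome ends stayed between 33.2% and 43.3%, their share with H3K4me3 between 46.7% and 54.2%, and the share of higher genes on chromosome 4 between 37.6% and 75.8%. Those 3 shares were added after seeing the data. Of the 10 higher genes with H3K4me3, V30 was below V0 in 40% to 60% when either V0 library was left out (20% against both), and in 11.1% of 9 without tied values. For lower genes with V30 above V0 the range was 55.3% to 59.6%, against 56.2% and 49.1% of all genes with both marks. Cause of other movements was not tested. Depth is unknown, and without replicates no size of difference is shown to exceed the spread between libraries.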
